A study of Mus musculus with 2 samples.

Results

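Cytotoxic and checkpoint genes of T cells were followed across lung tissue at increasing distance from breast cancer metastases. The genes were Cd8a, Gzmb, Prf1, Nkg7, Ccl5, Pdcd1, Cd274, Lag3, Foxp3 and Ctla4. They were chosen by symbol, all 10 were found, and they made up 10 of the 32285 features measured. Counts came from Visium, in which a tissue section lies on an array of barcoded spots and each spot collects the RNA of a small region that can hold several cells of different types. The metastatic section came from a mouse given an orthotopic injection of 4T1 cells, a mouse mammary tumour line, and the model as described places 1000000 cells in a mammary fat pad (m.f.p. injection) of female Balb/c mice aged 6 to 8 weeks, with lungs taken after 21 to 23 days. The control section came from an untreated lung, whose labels gave no strain, sex or age. Balb/c mice are immunocompetent. Each group was 1 section of 1 mouse, so no comparison had a replicate and none was tested. All intervals below are exact 95% intervals that cover counting error only.

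CD8+ T cells recognise peptide on class I major histocompatibility complex molecules and kill through granules that carry perforin and granzymes. Natural killer (NK) cells use the same granule proteins and chemokines without expressing a T cell receptor. Checkpoint receptors such as PD-1, CTLA-4 and LAG-3 appear on activated T cells and dampen their activity, and PD-L1, the ligand of PD-1, is made by tumour cells, macrophages and other cells after interferon exposure. Gzmb, Prf1, Nkg7 and Ccl5 were summed as effector genes, and Pdcd1, Cd274, Lag3 and Ctla4 as checkpoint genes. Cd8a and Foxp3, which mark lineages, stood outside both sums.

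In all, 20329126 counts fell on 1888 control spots, with a median of 9643.5, and 14657881 counts on 1110 metastatic spots, with a median of 11334.5. Of the spot barcodes, which mark array positions, 858 occurred in both sections. Levels are summed counts over summed spot totals times 10000 (CP10k). Tumour spots were found from Csn3, Etv4 and Mmp3, the genes set by the selection rule. A separate check list of 7 epithelial and proliferation genes was mixed. By both outlines, 3 (Krt18, Mki67 and Top2a) were past 2-fold higher in the core than in far lung. Another 3 (Krt19, Epcam and Cldn4) were past 2-fold lower. The narrow outline took spots whose summed level of the 3 genes was above 4.15 CP10k, a level set at an extreme upper percentile of the control spots, with at least 2 of the 3 genes detected and an adjacent spot that met both conditions. It gave 33 tumour spots in pieces of 25 and 8 at 1 tip of the section. The lowest level inside was 4.25 CP10k, the next below the threshold 4.07 CP10k, and 2 spots above it had no neighbour and were left out. A wide outline with a data-driven (Otsu) threshold of 0.959 CP10k gave 73 spots that included all 33, in pieces of 58, 4, 4, 3, 2 and 2. Csn3 was present in 53 spots of the metastatic section and in 0 spots of the control section. Around each outline, the margin reached 200 µm from the nearest tumour spot, the intermediate zone 500 µm, and everything beyond was called far lung. The narrow outline had 33 core, 55 margin, 55 intermediate and 967 far spots, and the wide outline 73, 106, 131 and 800. The median depth was 24808 counts in the narrow core and 10794 in its far lung, so shares of positive spots are biased towards the core, and levels per 10000 were used for comparison. Of the spots of the narrow margin, 28 were tumour spots of the wide outline, as were 9 of the intermediate zone and 3 of far lung. These included a piece of 2 spots that lay 1769 µm from the narrow outline. Tissue around that piece was far lung by the narrow outline, but margin and intermediate zone by the wide. Results are given for both outlines for that reason. Since a spot is a mixture, fewer cells of a type and less RNA per cell cannot be told apart.

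**Figure D1:**
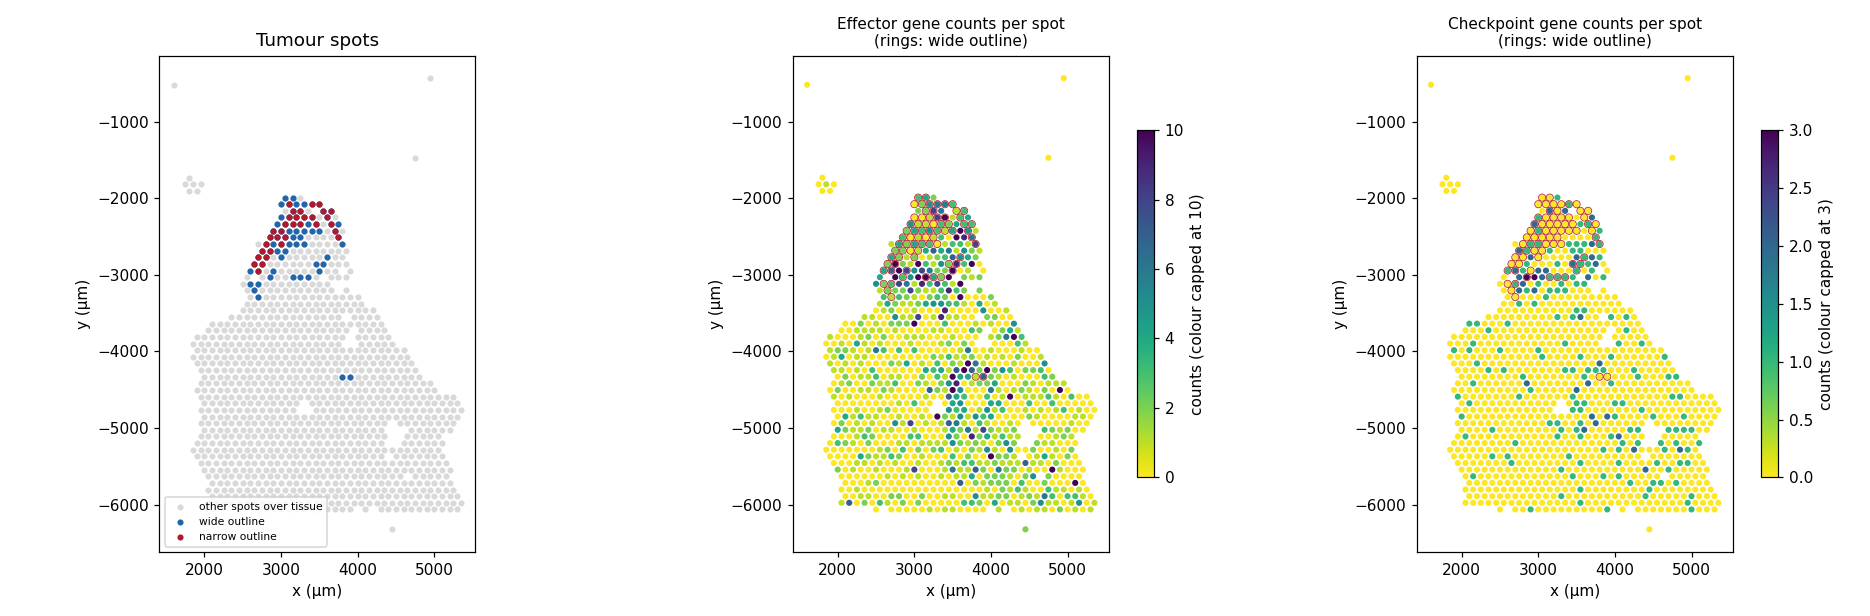
Map of the metastatic section, with x and y in µm. The left panel shows the tumour spots of the narrow outline (33, red) within the wide outline (73, blue), and the other panels colour each spot by its effector or checkpoint gene counts, where spots with many effector counts lie under the tumour tip and in a second patch near the middle of the section, beside 2 spots of the wide outline.

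Effector genes were lower in the core than in the tissue around it, yet not absent from it. The effector sum was 115 counts, or 1.37 CP10k (1.13 to 1.65), in the narrow core, 211 counts or 2.24 CP10k in the margin, 249 counts or 3.49 CP10k in the intermediate zone and 1289 counts or 1.06 CP10k in far lung. With the wide outline it was 260 counts or 1.68 CP10k in the core, 481 or 3.61 CP10k in the margin, 272 or 1.77 CP10k in the intermediate zone and 851 or 0.831 CP10k in far lung. The control section had 3406 counts, 1.68 CP10k. The core held 0.613 times the level of the margin (0.484 to 0.773) by the narrow outline and 0.466 times (0.399 to 0.543) by the wide. Margin over far lung was 2.11 (1.82 to 2.45) and 4.35 (3.88 to 4.87). Abundant genes (haemoglobin, mitochondrial, immunoglobulin, surfactant protein and secretoglobin genes) made up 30.0% of far lung counts and 2.26% of margin counts by the narrow outline. Margin over far lung was 1.51 with these genes left out of the spot totals. With a stricter outline of 10 tumour spots, above the highest control spot, core over margin turned to 1.11. The narrow and the wide outline put the peak between the tumour spots and the far lung, and they differed in its place. In rings of 100 µm, the effector level peaked at 4.82 CP10k between 300 and 400 µm from the narrow outline, and at 3.64 and 3.56 CP10k in the rings up to 100 and 200 µm from the wide outline. Of the 118 counts in that narrow ring, 103 were Ccl5, while Gzmb, Prf1 and Nkg7 had 2, 3 and 10. Nkg7 was at 0.408 CP10k there and at 0.679 CP10k between 200 and 300 µm. The peak in the narrow ring was thus that of Ccl5. A ring beyond 200 µm of the wide outline held 1.66 CP10k. Farther from the narrow outline, the effector level was 0.776 CP10k from 1000 to 1500 µm and 1.62 CP10k from 1500 to 2000 µm. The latter ring holds the remote 2-spot piece of the wide outline. The part of that piece in the wide ratios of margin over far lung was not tested.

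Inside the wide outline, the core could be split into 20 interior spots, whose neighbours were all tumour spots, and 53 edge spots. The effector sum was 47 counts in the interior, 0.942 CP10k (0.692 to 1.25), and 213 counts in the edge, 2.03 CP10k (1.77 to 2.33), a ratio of 0.464 (0.331 to 0.638). Ccl5 alone was at 0.276 times the edge level (0.159 to 0.453), while the effector sum without Ccl5 was at 0.802 times (0.504 to 1.24). The narrow outline had only 3 interior spots with 8 effector counts and 0 checkpoint counts, which is too few for a split. Of the 20 interior spots, 17 had at least 1 effector count.

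**Figure D2:**
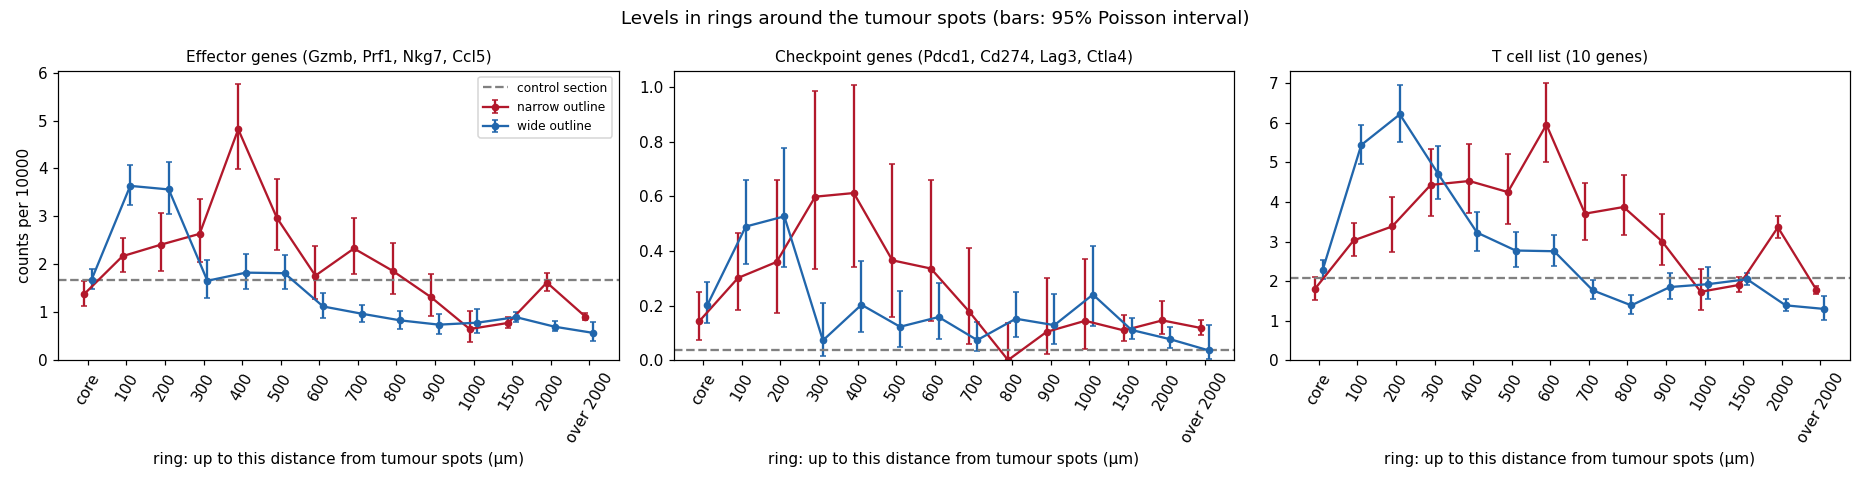
Levels of the effector genes, the checkpoint genes and a list of 10 T cell genes in rings around the tumour spots, in counts per 10000 (y) against the outer limit of the ring in µm (x). Points are pooled levels, bars exact 95% Poisson intervals, and the dashed line is the control section, where the effector level is 1.68 and the checkpoint level 0.0374.

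The granule genes behaved differently from Ccl5. Gzmb encodes granzyme B, the protease that granules deliver into target cells, Prf1 encodes perforin, which opens their membrane, and Nkg7 encodes a granule membrane protein that aids their release. Their promoters are printed here because these 3 genes had the highest core over far lung ratios among the effector genes. The windows are the 250 bases before each start in RefSeq on GRCm38.p6 (mm10), 5′ to 3′ on the strand of the gene, with Gzmb at chr14:56262335-56262584 on the minus strand, Prf1 at chr10:61297586-61297835 and Nkg7 at chr7:43436888-43437137 on the plus strand. Capitals mark matches to the letters TGTGGT or the reverse ACCACA (RUNX), TGANTCA (AP-1) and TTCNNNGAA (GAS), searched on both strands.
Gzmb: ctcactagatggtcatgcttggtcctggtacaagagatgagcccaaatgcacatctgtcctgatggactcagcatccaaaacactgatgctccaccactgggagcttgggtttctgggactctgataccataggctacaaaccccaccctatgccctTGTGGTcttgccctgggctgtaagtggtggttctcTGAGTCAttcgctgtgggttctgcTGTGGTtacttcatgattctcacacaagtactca
Prf1: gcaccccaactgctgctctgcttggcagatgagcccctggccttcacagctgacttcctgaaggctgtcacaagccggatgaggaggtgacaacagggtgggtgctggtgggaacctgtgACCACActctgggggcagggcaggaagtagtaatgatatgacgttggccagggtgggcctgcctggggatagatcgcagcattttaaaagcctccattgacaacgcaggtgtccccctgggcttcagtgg
Nkg7: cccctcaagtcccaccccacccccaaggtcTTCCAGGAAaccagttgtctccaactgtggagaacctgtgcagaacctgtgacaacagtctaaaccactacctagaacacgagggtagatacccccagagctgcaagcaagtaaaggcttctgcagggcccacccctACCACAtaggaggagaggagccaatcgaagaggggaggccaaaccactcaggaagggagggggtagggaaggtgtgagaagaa
The RUNX letters lay at 93 to 88 and at 34 to 29 bases before the start of Gzmb, at 130 to 125 before that of Prf1 and at 83 to 78 before that of Nkg7. They were in 14.0% of 32851 promoter windows of that length. Windows were at hand for 8 of the 10 genes, and those of Cd8a, Pdcd1, Cd274, Foxp3 and Ctla4 held no RUNX match. The AP-1 letters, in 6.75% of windows, were found in Gzmb at 58 to 52, and the GAS letters, in 7.02%, in Nkg7 at 220 to 212 and in 1 of the windows of Foxp3 at 139 to 131. The interferon response letters (GAAA, NN, GAAA), in 2.98% of windows, were in none of the 8 genes. A match is a run of letters and not a site.

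Gzmb had 6, 17, 5 and 42 counts in narrow core, margin, intermediate zone and far lung, and 42 in the control section. The levels were 0.0716, 0.180, 0.0700, 0.0345 and 0.0207 CP10k. The margin was thus 5.22 times far lung (2.79 to 9.38). By the wide outline, Gzmb had 19 counts in the core (0.123 CP10k), 14 in the margin (0.105), 5 in the intermediate zone (0.0326) and 32 in far lung (0.0312), so that core and margin were alike within the counting error (ratio 1.17, 0.556 to 2.52) and the core was 3.93 times far lung (2.11 to 7.15). The change of outline moved its highest level from margin to core.

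Prf1 had 10, 13, 11 and 74 counts in the narrow zones from core to far lung, at 0.119, 0.138, 0.154 and 0.0608 CP10k. In the control section it had 228 counts, 0.112 CP10k. Core, margin and intermediate zone did not separate within their intervals, and far lung was lower than the control section by a ratio of 0.542 (0.411 to 0.708). By the wide outline Prf1 stood at 0.129, 0.180, 0.0718 and 0.0517 CP10k (20, 24, 11 and 53 counts). Nkg7 had 35, 34, 37 and 234 counts in the narrow zones, at 0.418, 0.361, 0.518 and 0.192 CP10k, with 413 counts and 0.203 CP10k in the control section. Its wide levels were 0.427, 0.570, 0.222 and 0.160 CP10k (66, 76, 34 and 164 counts), with the core 2.67 times far lung (1.97 to 3.57). The core over margin ratio of Nkg7 was 1.16 (0.701 to 1.91) by the narrow and 0.748 (0.530 to 1.05) by the wide outline, neither apart from 1.

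Ccl5, a chemokine that attracts T cells and NK cells, set the shape of the effector sum, with 1346 of its 1864 counts in the metastatic section. It had 64, 147, 196 and 939 counts in the narrow zones, at 0.764, 1.56, 2.74 and 0.772 CP10k, and 2723 counts or 1.34 CP10k in the control section. Its wide levels were 1.00, 2.75, 1.45 and 0.588 CP10k (155, 367, 222 and 602 counts). Its core over margin ratio was 0.490 (0.359 to 0.661) and 0.364 (0.300 to 0.440). Without Ccl5, the effector sum was at 0.609, 0.679, 0.742 and 0.288 CP10k in the narrow zones and at 0.679, 0.855, 0.326 and 0.243 CP10k in the wide, and core over margin became 0.896 (0.608 to 1.32) and 0.794 (0.603 to 1.04). The lower core level of the effector sum thus came mainly from Ccl5, and the granule genes as a sum did not differ between core and margin beyond counting error. The cell type that carried the counts is not given by these data, since NK cells use the same genes.

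Cd8a encodes a chain of the CD8 co-receptor. It had 12, 12, 10 and 89 counts in the narrow core, margin, intermediate zone and far lung, at 0.143, 0.127, 0.140 and 0.0732 CP10k. The control section had 86 counts, 0.0423 CP10k. No step from margin to core was seen by the narrow outline (ratio 1.12, 0.462 to 2.74). Its levels around the wide outline were 0.110, 0.225, 0.117 and 0.0566 CP10k (17, 30, 18 and 58 counts), with a core over margin ratio of 0.488 (0.253 to 0.914) and a margin over far ratio of 3.98 (2.47 to 6.28). Cd8b1, the partner chain, had 15, 17, 15 and 39 counts in the same wide zones and 111 in the control section. Cd8a was detected in 9 of 33 narrow core spots, 27.3%, and in 79 of 967 far spots, 8.17%. With every spot thinned to 5000 counts and all possible draws averaged, the shares were 7.27% and 3.74%.

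**Figure D3:**
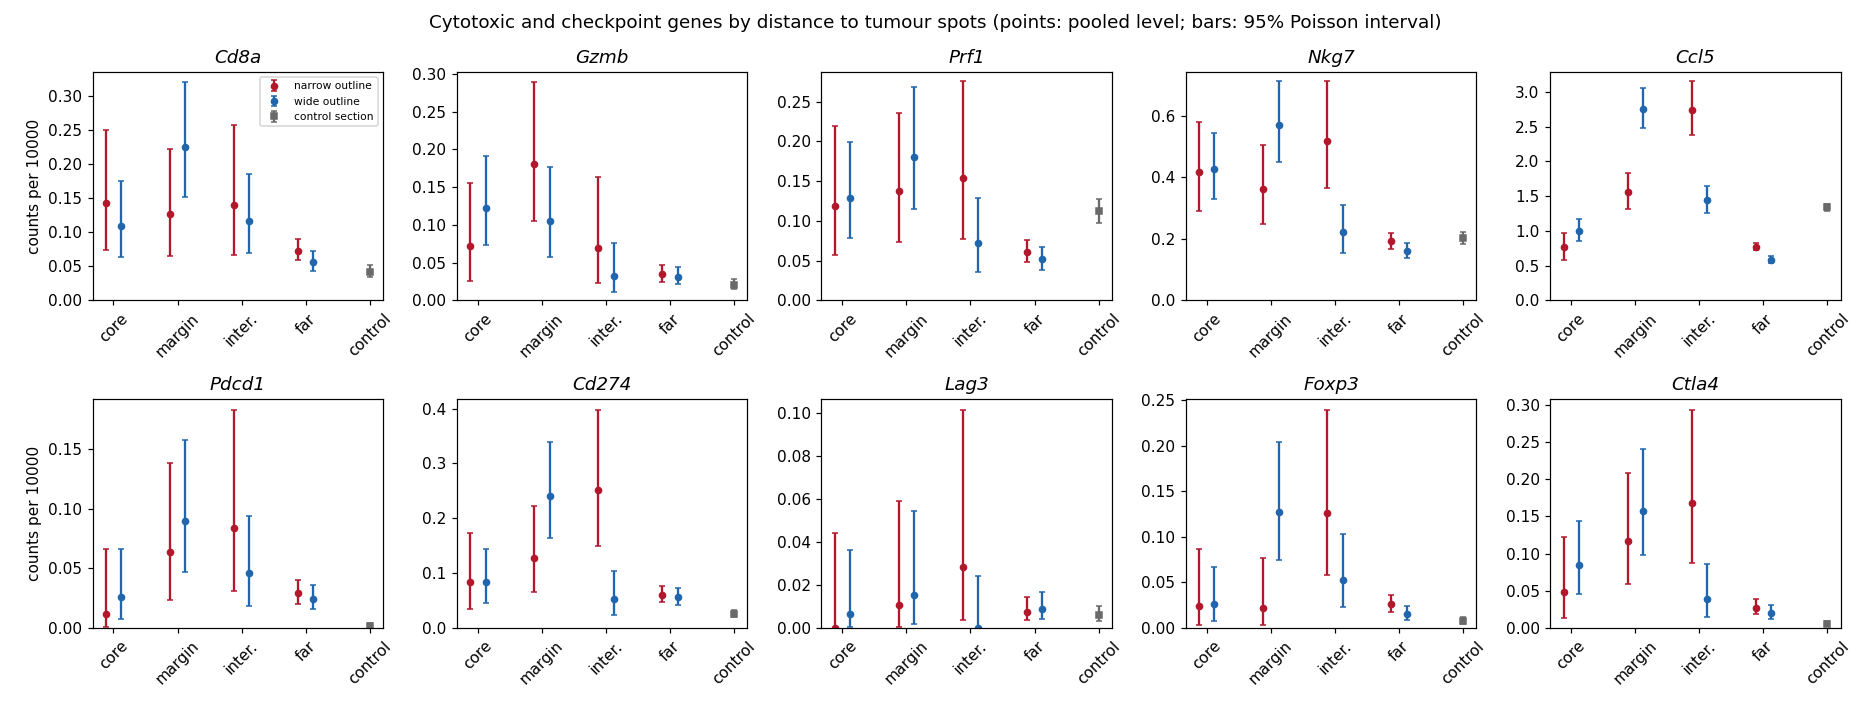
Pooled level of each of the 10 genes in counts per 10000 (y) in core, margin, intermediate zone (inter.) and far lung of the metastatic section and in the control section. Red points are the narrow outline, blue the wide outline, the grey square is the control section, and bars are exact 95% Poisson intervals. The scale differs between panels, from Ccl5 with up to 2.75 to Lag3 with up to 0.0280.

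Checkpoint genes, like the effector sum, were highest in the intermediate zone by the narrow outline and in the margin by the wide. The checkpoint sum was 12, 30, 38 and 150 counts from narrow core to far lung, at 0.143, 0.318, 0.532 and 0.123 CP10k, and 76 counts or 0.0374 CP10k in the control section. The wide outline gave 31, 67, 21 and 111 counts, at 0.200, 0.503, 0.137 and 0.108 CP10k. Margin over far lung was 2.58 (1.68 to 3.84) and 4.64 (3.37 to 6.34). Core over margin was 0.450 (0.210 to 0.905) and 0.399 (0.252 to 0.619), and the former was 0.543 as the mean over all draws of thinning to 5000 counts per spot. The checkpoint sum peaked in the rings up to 300 and 400 µm from the narrow outline, with 0.599 and 0.612 CP10k, and up to 100 and 200 µm from the wide, with 0.489 and 0.527 CP10k. In the next wide ring it was 0.0720 CP10k, on 3 counts. At least 1 checkpoint count was found in 45.3% of wide margin spots (35.6% to 55.2%), 31.5% of core spots and 12.6% of far spots, and as the mean over all thinnings in 23.4%, 9.89% and 5.71%.

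Pdcd1, which encodes PD-1, had 1 count in the narrow core, 6 in the margin, 6 in the intermediate zone and 35 in far lung. The wide zones held 4, 12, 7 and 25 counts, at 0.0259, 0.0901, 0.0457 and 0.0244 CP10k. The wide margin was 3.69 times far lung (1.69 to 7.62), and the core 0.287 times the margin (0.0675 to 0.948). Ctla4, which encodes CTLA-4, an inhibitory receptor that competes for CD80 and CD86, had 4, 11, 12 and 33 narrow counts and 13, 21, 6 and 20 wide counts. Its wide levels were 0.0840, 0.158, 0.0391 and 0.0195 CP10k, so the margin was 8.07 times far lung (4.16 to 15.7) and the core 4.31 times (1.97 to 9.10). A single spot carried 4 of the 13 core counts.

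Cd274 encodes PD-L1. It had 7, 12, 18 and 73 narrow counts, at 0.0835, 0.127, 0.252 and 0.0600 CP10k, and 13, 32, 8 and 57 wide counts, at 0.0840, 0.240, 0.0522 and 0.0556 CP10k. The wide core was at 0.350 times the margin (0.169 to 0.686), so the ligand was not higher in tumour spots than beside them. Lag3, the receptor LAG-3, was too sparse to place, with 12 counts in the whole metastatic section (0, 1, 2 and 9 in the narrow zones) and 12 in the control section. Its 0 counts in the narrow core allow a level of up to 0.0358 CP10k (3 counts). Foxp3, the transcription factor of regulatory T cells, had 2, 2, 9 and 31 narrow counts and 4, 17, 8 and 15 wide counts, each in a spot of its own. Its wide levels were 0.0259, 0.128, 0.0522 and 0.0146 CP10k, with the margin 8.71 times far lung (4.09 to 18.7) and the core 0.203 times the margin (0.0496 to 0.622). The narrow outline showed no such rise at the margin, which held 2 counts, as did the core. Per count of the T cell list, Foxp3 in the narrow margin was at 0.591 times far lung (0.0682 to 2.34). The place of its peak thus depended on the outline.

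The number of members past 2-fold was set against all genes with at least 10 counts in the compared zones. By the narrow outline, 6 of 10 members were at least 2-fold higher in margin than in far lung (Gzmb, Prf1, Ccl5, Pdcd1, Cd274 and Ctla4), where 18.9% of all genes were. By the wide outline 9 of 10 were, all but Lag3, against 20.6%. Members and all genes were called on spot totals that include the abundant genes, 30.0% of narrow far lung counts and 2.26% of margin counts. Without these genes the member ratios of margin over far lung would be lower, and calls near 2-fold, such as that of Ccl5, may not hold. The median log2 ratio of the 10 was 1.05 and 1.94, beside 0.14 and 0.37 over all genes. In the intermediate zone, 9 of 10 members passed over far lung by the narrow outline (17.7% of all genes) and 4 of 9 by the wide (5.91%: Cd8a, Ccl5, Foxp3 and Ctla4), and 0 were past 2-fold lower by the wide (3.62%). Core over far lung was past 2-fold for 2 of 9 by the narrow outline (Gzmb and Nkg7, background 20.0%) and for 4 of 10 by the wide (Gzmb, Prf1, Nkg7 and Ctla4, background 21.7%). Pdcd1 was past 2-fold lower in the narrow core, on 1 count, as were 28.1% of all genes. The core was at least 2-fold below the margin for 3 of 7 members by the narrow outline (Gzmb, Ccl5 and Ctla4, background 8.27%) and for 5 of 9 by the wide (Cd8a, Ccl5, Pdcd1, Cd274 and Foxp3, background 15.6%). In the other direction, 0 members were past 2-fold higher in the core than in the margin, where 2.75% of all genes were by the narrow and 3.14% by the wide outline. The share of members higher in the narrow core than in far lung was near its background, and the shares higher in the margin than in far lung, and lower in the core than in the margin, were above theirs.

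T cell receptor and signalling genes were highest in the intermediate zone of the narrow outline and in the margin of the wide. The T cell list (10 genes, from Cd3d to Lck) was at 1.80, 3.13, 4.41 and 2.22 CP10k in the narrow zones, 2.28, 5.72, 3.46 and 1.78 CP10k in the wide, and 2.09 CP10k in the control section. Of its 10 genes, 0 were past 2-fold higher in the narrow margin than in far lung (18.9% of all genes). In the narrow intermediate zone 6 were (17.7% of all genes), and in the wide margin 9 (20.6%). In the core, 4 were past 2-fold lower than in the margin by the narrow outline (8.27% of all genes) and 9 by the wide (15.6%). Set against T cell list counts, the effector sum without Ccl5 was 29.8 per 100 in the wide core, 15.0 in the margin and 13.7 in far lung, and 16.1 in the control section. The core over margin ratio of that balance was 1.99 (1.47 to 2.69), and by the narrow outline it was 1.56 (1.00 to 2.41). Granule counts per T cell count were thus higher in the core, where T cell counts themselves were lower.

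The NK cell list (7 genes) was at 0.485 CP10k in the wide core, 0.488 in the margin, 0.0976 in far lung and 0.227 in the control section. In the core, 46 of its 75 counts were from Klra4, a member of the near-identical Klra receptor family whose reads may be split between copies. Ncr1, which encodes the NK receptor NKp46, had 8, 22, 14 and 32 counts in the wide zones and 182 in the control section, and Klrb1c had 9, 7, 5 and 31, with 143 in the control section. For Ncr1 that was 0.0517 CP10k in the core, 0.165 in the margin and 0.0895 in the control section, so the list level of the core did not hold for this marker. Whether T or NK cells carried the granule genes in the core was not tested. Macrophage genes were high in both, with a list level of 8.85 CP10k in the wide core and 9.51 in the margin against 3.43 in far lung. The endothelial list was at 14.0 CP10k in far lung and 0.970 in the wide core.

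Other effector genes depended on the outline. Of 10 further effector genes, 7 of the 9 with enough counts were past 2-fold higher in the wide margin than in far lung (20.6% of all genes) and 4 of 8 in the narrow margin (18.9%), where 1 was past 2-fold lower. In the core, 6 of 8 were past 2-fold higher and 1 lower by the wide outline (21.7% of all genes higher), and 2 of 9 higher and 3 lower by the narrow (20.0% higher and 28.1% lower). Gzmc, another granzyme, had 16 counts in the wide core, 9 in the margin and 16 in far lung, with 1 in the control section. Gzma, by contrast, had 31, 30, 34 and 204 counts, at 0.200, 0.225, 0.222 and 0.199 CP10k, and 834 counts or 0.410 CP10k in the control section. It was flat across the metastatic section. Xcl1, a chemokine for cross-presenting dendritic cells, had 18, 34, 8 and 23 counts and 10 in the control section. Ifng, the interferon gamma gene, had 2, 7, 4 and 4 counts and 10 in the control section.

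Of 15 further checkpoint and costimulatory genes, 13 had enough counts and 11 were past 2-fold in the wide margin over far lung (20.6% of all genes). By the narrow outline these were 9 of 14 (18.9% of all genes). Tnfrsf9, the costimulatory receptor 4-1BB, had 19, 22, 5 and 23 wide counts and 12 in the control section. Pdcd1lg2, the other ligand of PD-1, had 12, 13, 3 and 14 counts and 10 in the control section. Tigit had 0 counts in both sections. Among recruitment genes, all 5 that could be counted were past 2-fold in the wide margin over far lung, and 4 of 5 in the narrow margin. The shares of all genes were again 20.6% and 18.9%. Cxcl9, an interferon-induced chemokine for T cells that carry CXCR3, had 405 counts in the wide core, 657 in the margin, 123 in the intermediate zone, 327 in far lung and 7 in the control section. Its receptor Cxcr3 had 21, 29, 15 and 40, and 103 in the control section.

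The balance of checkpoint to effector counts was similar in margin and far lung of the metastatic section and far higher than in the control section. There were 10.4, 14.2, 15.3 and 11.6 checkpoint counts per 100 effector counts in the narrow zones from core to far lung, and 11.9, 13.9, 7.72 and 13.0 in the wide. Margin over far lung was 1.22 (0.776 to 1.87) and 1.07 (0.760 to 1.49), so no difference was detectable at this depth. With Ccl5 left out of the effector counts, it was 1.09 (0.656 to 1.79) and 1.32 (0.888 to 1.95). An increase above 1.95-fold at the margin lies outside all of these intervals, which cover counting error only. The control section had 2.23 per 100. Far lung was therefore above the control section by 5.22-fold (3.90 to 7.02) for the narrow outline and 5.85-fold (4.28 to 8.01) for the wide. With Ccl5 left out of the effector counts, these were 3.852-fold (2.812 to 5.295) and 4.006-fold (2.855 to 5.629). In the wide intermediate zone the balance was 0.592 times that of far lung (0.346 to 0.973), but 0.942 times (0.512 to 1.69) with Ccl5 left out. By the narrow outline it was 1.31 times (0.871 to 1.94), and 1.67 times (1.025 to 2.71) with Ccl5 left out. Without Ccl5, there were 29.5 checkpoint counts per 100 effector counts in the wide core and 58.8 in the margin, a ratio of 0.502 (0.293 to 0.852), and by the narrow outline 23.5 and 46.9, a ratio of 0.502 (0.213 to 1.14). Relative to the granule genes, the checkpoint genes were thus lower in the core than in the margin, with an interval that excluded 1 for the wide outline only.

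**Figure D4:**
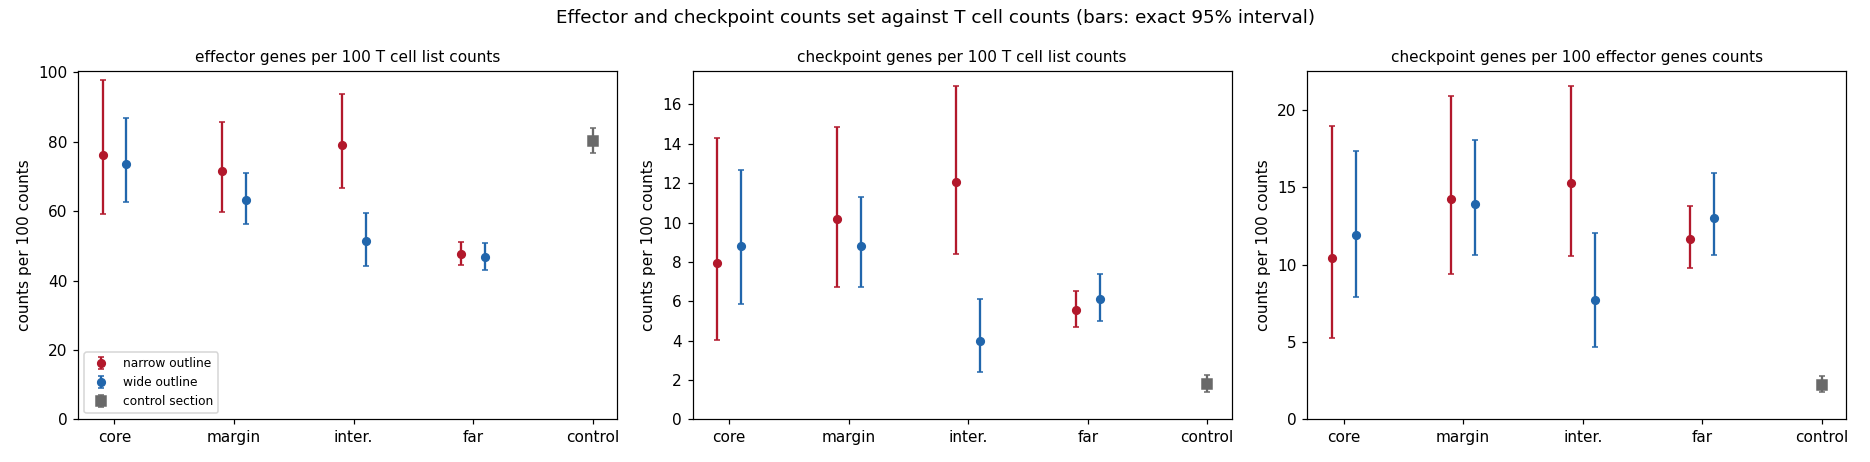
Effector counts and checkpoint counts per 100 counts of the T cell list, and checkpoint counts per 100 effector counts (y), in core, margin, intermediate zone (inter.) and far lung of the metastatic section and in the control section. Bars are exact 95% intervals, and the control section has the lowest checkpoint values, 1.79 per 100 T cell counts and 2.23 per 100 effector counts.

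Far from the tumour, the effector sum was below and the checkpoint sum above the control section. Effector counts were at 0.633 times the control level (0.593 to 0.675) by the narrow outline and 0.496 times (0.459 to 0.535) by the wide, with Ccl5 at 0.576 and 0.439 and Prf1 at 0.542 and 0.461. Nkg7 was at 0.947 (0.803 to 1.11) and 0.788 (0.653 to 0.946). Gzmb was above 1 by the narrow outline, at 1.67 (1.06 to 2.63), and its wide interval reached below 1 (1.51, 0.924 to 2.45). The effector sum without Ccl5 was at 0.856 (0.751 to 0.976) and 0.723 (0.623 to 0.838). The NK cell list was lower as well, at 0.127 and 0.0976 CP10k in far lung and 0.227 in the control section, and its part in the lower effector sum was not tested. Cardiac muscle genes were at 25.3 CP10k in the control section and 0.0715 in narrow far lung, so the tissue sampled was not the same. Checkpoint counts were at 3.30 times the control level (2.49 to 4.41) and 2.90 times (2.15 to 3.93). Of the 10 members, 4 were past 2-fold higher by the narrow outline (Pdcd1, Cd274, Foxp3 and Ctla4), where 2.87% of all genes were, and 0 were past 2-fold lower, where 6.47% were. By the wide outline 3 were higher (Pdcd1, Cd274 and Ctla4, background 2.06%) and 2 were lower (Prf1 and Ccl5, background 7.63%).

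Pdcd1 had the highest ratio. It had 3 counts in the 1888 control spots and 35 in the 967 far spots of the narrow outline, a ratio of 19.5 with a wide counting interval (6.15 to 99.1). In the wide far lung it had 25 counts, a ratio of 16.5 (5.04 to 85.6). Ctla4 had 10 control counts and was at 5.52 (2.65 to 12.5) and 3.97 (1.77 to 9.49), and Cd274 had 51 control counts and was at 2.39 (1.65 to 3.49) and 2.22 (1.49 to 3.30). Foxp3, with 15 control counts, was at 3.45 (1.81 to 6.89) by the narrow outline and at 1.98 (0.904 to 4.36) by the wide. T cell list counts were nearly level between far lung and control, so per T cell list count the ratios stayed close, at 18.3 for Pdcd1 (5.76 to 93.1), 5.18 for Ctla4 (2.49 to 11.8), 3.24 for Foxp3 (1.69 to 6.47) and 2.25 for Cd274 (1.54 to 3.29) by the narrow outline. Neutrophil genes differed between the sections as well, with a list level of 23.6 CP10k in narrow far lung and 2.13 in the control section, and macrophage genes were at 3.83 and 2.40. Their part in the Cd274 counts was not tested. With 1 mouse in each group, the metastases cannot be told apart from the mouse, the section or the library.

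**Figure D5:**
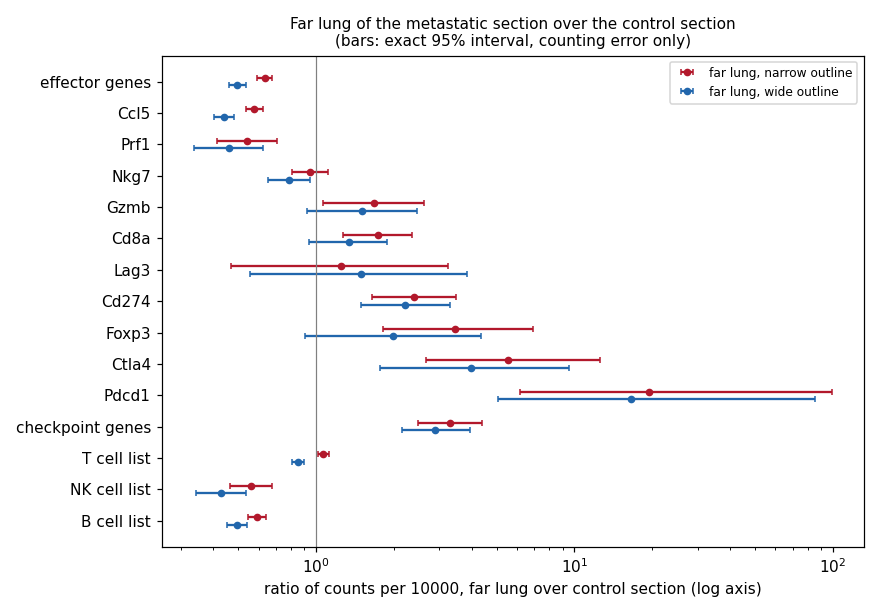
Ratio of counts per 10000 in far lung of the metastatic section over the control section (x, log axis) for the members, their sums and the lists of T, NK and B cells (y). Points are ratios by the narrow (red) and wide (blue) outline, bars exact 95% intervals, and the line marks 1. Pdcd1 has the highest ratio, 19.5 by the narrow outline, and Ccl5 and Prf1 lie below 1.

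Spots rich in T cell genes (T-rich) held higher effector levels than the other spots in both sections, and higher checkpoint levels in the metastatic section. In the control section the checkpoint level of T-rich spots was not higher beyond counting error. All other spots were at 1.08 effector and 0.140 checkpoint CP10k in the metastatic section, and at 1.62 and 0.0366 in the control section. The 5% of spots with the highest T cell list level were 56 in the metastatic section. Of these, the wide outline placed 5 in the core, 25 in the margin, 16 in the intermediate zone and 10 in far lung. The narrow outline placed 1, 4, 9 and 42 in these zones, so where they lay relative to the tumour depended on the outline. The 56 spots held 339 effector counts (5.96 CP10k) and 33 checkpoint counts (0.580 CP10k, 0.400 to 0.815). In the 95 T-rich control spots there were 215 effector counts (3.25 CP10k) and 4 checkpoint counts (0.0606 CP10k, 0.0165 to 0.155), with 0 for Pdcd1. The gap between sections in T-rich spots was thus wider for checkpoint than for effector genes. Foxp3 had 14 of its 44 counts in the T-rich spots of the metastatic section and 5 of 15 in those of the control section.

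Of the 701 metastatic spots with any member, 349 had at least 2 of them, and of 1183 control spots 439 had. No spot had more than 7 of the 10 members, 409 of the 1110 metastatic spots and 705 of the 1888 control spots had none, and 61 metastatic spots had at least 4, against 19 control spots. Of the 47 spots with Pdcd1, 26 also had Ccl5, 12 had Cd8a, 16 had Nkg7, 10 had Cd274 and 2 had Foxp3. Of the 44 spots with Foxp3, 36 had Ccl5 and 25 had Nkg7. Among all 1110 metastatic spots, Ccl5 was in 508, Nkg7 in 255, Cd8a in 103, Cd274 in 102 and Foxp3 in 44. Deeper spots hold more genes, so these shares are descriptions. In the control section, the 50 spots richest in cardiac muscle genes, with a median of 13175 counts, were taken as a rough reference for free RNA. There Ccl5 was found in 36.0% of spots, against 54.0% of all control spots, Cd8a in 2.00% against 4.13%, and the checkpoint genes in 2.00% against 3.97%. As the mean over all thinnings, Ccl5 was in 17.9% of these spots and in 22.5% of wide far spots (36.9% before thinning). The reference spots belong to the other section and can themselves hold T or NK cells. These shares thus do not measure free RNA in far lung, and its part in the Ccl5 counts was not tested.

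Genes whose level most resembled the members were found over 65 blocks of 400 µm in the metastatic section, among 8375 genes with at least 200 counts. For Ccl5 these were Ly6i, Il2rb and Aif1 (Pearson r of 0.81, 0.78 and 0.78), for Ctla4 Ly6i, Il2rb and Bcl2a1b (0.78, 0.71 and 0.71), and for Cd8a Adcy7, Ptprcap and Ly6i (0.75 for each). For the effector sum they were AW112010, Irgm1 and Ly6i (0.85, 0.81 and 0.80) and for the checkpoint sum Aif1, Cd52 and Ly6i (0.82, 0.81 and 0.80). Il2rb encodes a chain of the receptors for interleukins on T and NK cells, and Irgm1 is an interferon-induced GTPase. Gzmb, with 70 counts, reached 0.64 at most, with Nsun5. All blocks come from a single library and share its depth, and no likeness was tested.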

How the data were processed

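Visium libraries of 1 control and 1 metastatic mouse lung section (fresh-frozen, H&E stained) were used. The authors deposited raw counts per gene and spot, made with Space Ranger 1.3.1 on mm10 according to the submitters' processing notes, and spots over tissue were kept. Levels were pooled counts over pooled spot totals times 10000. A fold call needed a ratio of at least 2 and at least 10 counts over both zones, with no pseudocount. Exact 95% Poisson intervals were used for levels, exact binomial intervals for ratios of counts and for shares of spots (Clopper-Pearson), and 3 counts as the limit of a count of 0. UMI counts do not replace replicates, so with 1 section per group no test was run. For thinned shares, the exact expected share with each spot reduced to 5000 counts (hypergeometric) was used, and shallower spots were left out (362 control, 82 metastatic). No doublet caller was run, since spots are not cells.

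The members, lists and rules were chosen with earlier results of these data known. Named genes were all 10 members, genes of the fixed lists where a result turned on them, and, for each member with at least 50 counts, the 3 genes with the highest Pearson correlation of log2(counts per 10000 + 1) over 400 µm blocks of at least 5 spots. Of the recruitment list, 5 of 8 genes were found by symbol. In all, 16 alternative settings were run. The scripts were tested on simulated data. Python 3.11.15, numpy 2.4.6, scipy 1.17.1, pandas 2.3.3 and matplotlib 3.10.9 were used. The promoter windows are from RefSeq (GRCm38.p6), and no window was used for Ccl5 and Lag3.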

Additional observations from a re-analysis of the deposited data

How the results depend on the processing

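No paired analysis was possible because each group held 1 sample. Without replicates, the animal, section and library cannot be separated from the metastases, and counts under 20 left wide intervals for Pdcd1, Lag3, Foxp3 and Ctla4. Effector margin over far lung, 2.11 in the report, was 1.12 with tumour spots above the highest control spot (10 spots), 4.35 by the Otsu threshold, 3.51 with the top 5% of spots, 2.87 with lone tumour spots kept, 1.51 with the library size taken without 457 abundant genes, 1.64 after 1 random thinning to 5000 counts, 1.80 as the mean over all such draws and 2.83 around the smaller tumour piece alone. Checkpoint margin over far lung, 2.58 in the report, was 1.44, 4.64 and 3.89 for the first 3 of these outlines. Effector core over margin, 0.613 in the report, reversed to 1.11 with the highest control spot as threshold, and was 0.466 by the Otsu threshold, 0.453 with the top 5% and 0.896 without Ccl5. Checkpoint core over margin, 0.450 in the report, was 0.982 after the 1 random thinning and 0.543 as the mean over all draws, so the former rests on the draw. Effector far lung over control, 0.633 in the report, was 0.684, 0.496, 0.548 and 0.556 for the highest control spot, Otsu, top 5% and lone spots kept, and 0.856 without Ccl5. Checkpoint far lung over control was 5.15 without Cd274. Checkpoint per effector count, margin over far lung, stayed within its interval under all 16 settings. Of single genes, Gzmb far over control reversed to 0.848 around the larger piece alone, Prf1 margin over far to 0.621 around the smaller piece alone, and Ccl5 margin over far to 0.910 with the highest control spot as threshold. The sums without Ccl5 or Cd274, the mean over all draws and the restriction to the largest piece of tissue were chosen after seeing the data. The cause of the other changes was not tested.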
